A study of Mus musculus with 6 samples.

Results

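Trophocytes and adventitial fibroblasts are the CD34+ stromal cells that lie beneath the crypts and around vessels in the intestine, and 10 genes used as their markers were followed in the CAFs of colitis-associated adenomas: Cd34, Pi16, Cd81, Ly6a, Dpp4, Cd55, Clec3b, Dpt, Sema3c and Gsn. They were found by gene symbol, each in 1 row, among the 49548 genes of the deposited table. The CAFs came from C57/BL6 mice of the genotype Col6a1-cre, Rosa26-mTmG, which carry a reporter that switches from membrane Tomato to GFP in cells with past or present activity of the Col6a1Cre transgene. All mice received azoxymethane (AOM), a colon carcinogen, and dextran sodium sulfate (DSS), which damages the colonic epithelium. Cells of digested adenomas that lacked CD45, EpCAM, CD31 and Ter119 were sorted into GFP+ cells, called Col6a1+ CAFs, and Tomato+ cells, called Col6a1- CAFs, with 3 libraries of each, sequenced at the 3′ ends of their transcripts. Each library came from pooled tumors of several adult mice, so that its value is an average over animals. The Tomato+ sort is defined by what it lacks, and by the study's account it takes in the trophocytes together with most fibroblasts of low PDGFRα, which it could not separate. The study asked whether CAF subsets keep features of resident fibroblasts, but only the comparison of the CAF subsets is made here.

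Trophocytes secrete factors that sustain the stem cells of the crypt, among them the BMP antagonist Gremlin 1 and R-spondins, and are sorted by the tetraspanin CD81. Fibroblasts of the adventitia, which surrounds vessels in many organs, carry Pi16, Dpp4, Cd55 and Sca-1, the product of Ly6a, and are regarded as a reserve from which other fibroblasts can arise. None of these genes is specific to fibroblasts. Cd34 and Ly6a are also active in endothelial and blood-forming cells, Dpp4 in the brush border of the intestine, and Cd81, Cd55 and Gsn in many cell types.

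The normalized counts summed to between 3039152 and 3425249 per library, and genes with at least 1 count numbered between 14530 and 20511. Col6a1+ replicate 1 had the fewest, and the next library had 18770. In the 5 libraries where the spacing of low values could be read, 1 read was worth between 0.661 and 1.337 normalized counts. In those libraries a normalized count is near a read, and the worth of a read in Col6a1- replicate 2 is not known. Col6a1, as a check of the labels, had 861, 1287 and 1941 normalized counts in Col6a1+ CAFs and 182, 321 and 102 in Col6a1- CAFs. Pan-fibroblast genes (Col1a1, Col1a2, Col3a1, Dcn, Lum, Vim and Pdpn) were present in every library, with sums of 39997 to 44657 normalized counts in Col6a1+ and 8795 to 15939 in Col6a1- CAFs. Although the sort excluded EpCAM+ cells, 8 epithelial genes (Epcam, Cdh1, Krt8, Krt18, Krt19, Krt20, Vil1 and Muc2) summed to 4948 to 5336 in Col6a1+ CAFs and 18155 to 27801 in Col6a1- CAFs, 4.32-fold more on average, and 6 of the 8 were called higher in Col6a1- CAFs. The 10 markers themselves summed to 1763, 3855 and 2899 in Col6a1+ CAFs and to 3900, 6446 and 3497 in Col6a1- CAFs. When each library was scaled to its pan-fibroblast genes, a setting added after seeing the data, all 10 markers were called higher in Col6a1- CAFs, but so were 64.6% of all genes, against 0.875% called higher in Col6a1+ CAFs. In such bulk libraries fewer cells of a type and less RNA per cell cannot be told apart.

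**Figure D1:**
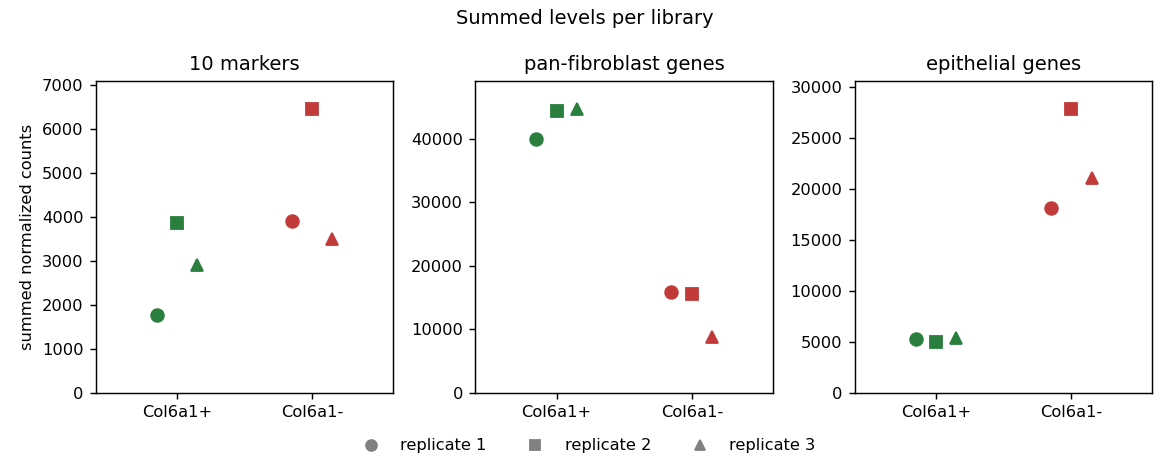
Summed normalized counts per library (vertical axis, linear from 0) of the 10 markers, the 7 pan-fibroblast genes and the 8 epithelial genes, with 1 point for each of the 3 replicates of a subset. The pan-fibroblast sums are lower and the epithelial sums higher in every Col6a1- library than in any Col6a1+ library, while the sums of the 10 markers overlap.

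The start regions of the 10 markers differed in composition. RefSeq windows (GRCm38.p6, the assembly of mm10) were matched by symbol for 8 of the 10 genes, with 3 windows for Gsn and 1 for each of the others. The 250 bases before the start are shown for Cd34 and Cd81, the markers that were called between the subsets, and for Dpt, whose fold change was nearest to 0. Capitals mark GC boxes, the only searched motif found in these 3 windows.
Cd34 (chr1:194938571-194938820, plus strand): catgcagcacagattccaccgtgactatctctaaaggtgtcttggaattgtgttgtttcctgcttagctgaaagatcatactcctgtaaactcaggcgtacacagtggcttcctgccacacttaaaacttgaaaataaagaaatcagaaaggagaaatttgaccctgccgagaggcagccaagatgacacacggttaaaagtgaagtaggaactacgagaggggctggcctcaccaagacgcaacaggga
Cd81 (chr7:143052500-143052749, plus strand): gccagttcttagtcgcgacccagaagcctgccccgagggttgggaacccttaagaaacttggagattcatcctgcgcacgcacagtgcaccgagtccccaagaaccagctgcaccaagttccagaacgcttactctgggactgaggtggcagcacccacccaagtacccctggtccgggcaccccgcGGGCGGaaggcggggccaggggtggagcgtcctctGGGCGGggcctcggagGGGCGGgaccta
Dpt (chr1:164796413-164796662, plus strand): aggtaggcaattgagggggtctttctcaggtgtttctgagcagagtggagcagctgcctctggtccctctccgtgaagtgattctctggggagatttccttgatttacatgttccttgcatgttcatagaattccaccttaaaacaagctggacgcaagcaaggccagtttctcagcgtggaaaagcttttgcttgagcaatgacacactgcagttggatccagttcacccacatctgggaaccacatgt
The Cd81 window held 3 GC boxes, 65.6% G and C bases and 16 CpG pairs. The windows of Cd34 and Dpt held none, with 46.4% and 48.8% G and C bases and 6 and 3 CpG pairs. The motifs searched on both strands were the GC box (GGGCGG), the CCAAT box (CCAAT), the TATA box (TATAAA) and the E box (CACGTG), and no matches overlapped. Of the 10 windows of these genes, 6 held a GC box, those of Cd81, Cd55 and Sema3c and all 3 of Gsn, against 32.7% of 32851 windows of all genes. A CCAAT box was in 3 of the 10, that of Pi16 and 2 of Gsn, against 33.8%, the TATA box only in that of Dpp4, against 12.4%, and the E box in none, against 6.02%.

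The question for the 10 markers was whether they differed between Col6a1+ and Col6a1- CAFs. Cd34 and Cd81 were lower in Col6a1+ CAFs, at -3.06 and -1.80 on the log2 scale, whereas the matrix genes Dpt and Clec3b, the secreted Sema3c and the actin-severing Gsn had overlapping levels in both subsets. All 10 genes passed the filter of 1 normalized count over the 6 libraries and had a mean of at least 10, and 8 had at least 10 in every library, all but Pi16 and Dpp4. In limma, with p-values adjusted by the Benjamini-Hochberg method over all 26402 genes tested, 2 of the 10 were called higher in Col6a1- CAFs at an adjusted p under 0.05, as were 1.96% of all genes. None was called higher in Col6a1+ CAFs, as were 2.66% of all genes, and the number was also 0 at an unadjusted p under 0.05 and with limma-voom. For 4 of the 10, Cd34, Cd81, Dpp4 and Cd55, each Col6a1- library was above each Col6a1+ library, as for 11.6% of all genes tested and 17.6% of those that averaged 10 or more. The mean log2 value was lower in Col6a1+ CAFs for 9 of the 10, as for 58.8% of all genes and 56.4% of those with a mean of at least 10, and the median log2 fold change of the 10 was -1.25, beside -0.27 over all genes tested. The median of the 6 genes for surface proteins was -2.43, and the 3 matrix and secreted genes had a median of -0.37. With the replicate number as a block, both calls were lost (limma adjusted p = 0.0612 for Cd34 and 0.0746 for Cd81). When the block was fitted only to genes that averaged 10 or more, 3 of the 10 were called, Cd34, Cd81 and Cd55. The share of all genes called was not counted in either fit with the block.

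**Figure D2:**
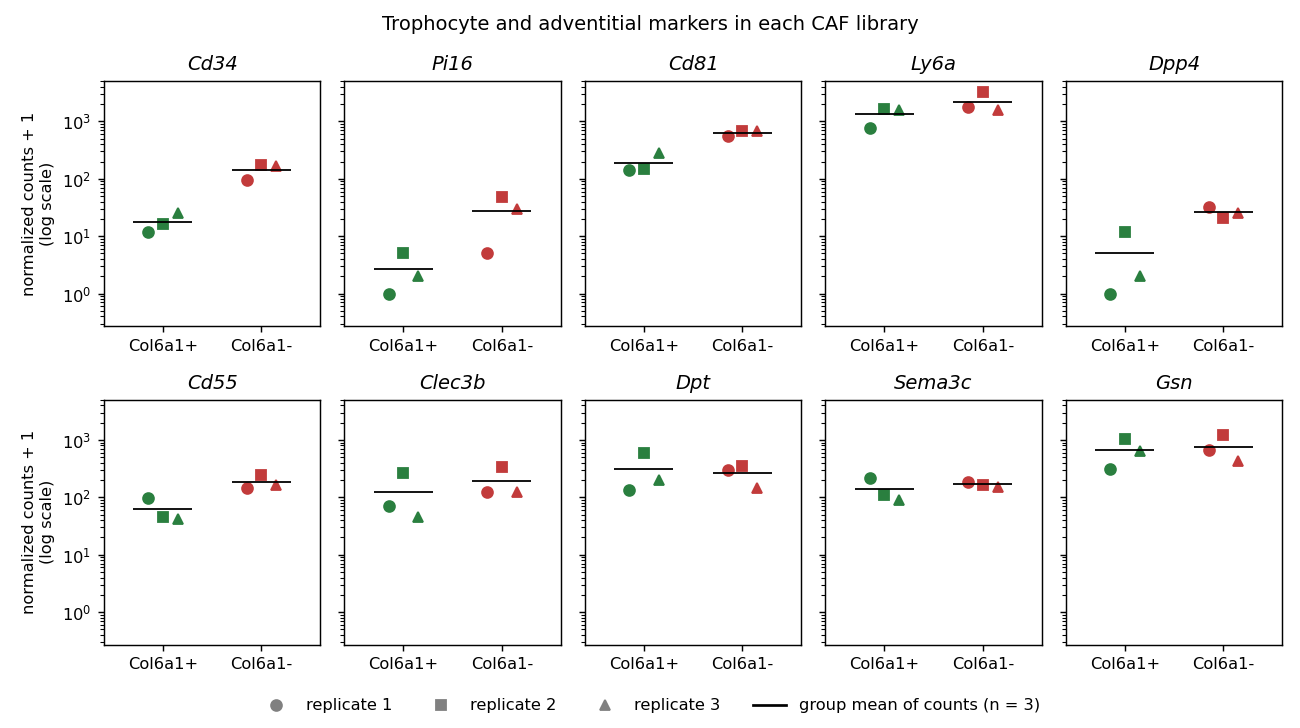
Normalized counts plus 1 (vertical axis, log scale) of the 10 markers in each library, with symbols for replicate numbers and a line at the mean count of the 3 libraries. Cd34, Cd81, Dpp4 and Cd55 have no overlap between the subsets, whereas Dpt, Gsn, Sema3c, Clec3b, Ly6a and Pi16 do.

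Cd34 encodes a sialomucin of the cell surface and is used as a marker of trophocytes. Cd34 (ENSMUSG00000016494, chromosome 1 from 194938819 to 194961279 of mm10, plus strand) had 11, 15 and 24 normalized counts in Col6a1+ CAFs and 96, 172 and 165 in Col6a1- CAFs. All Col6a1- libraries lay far above all Col6a1+ libraries. The means were 16.7 ± 6.66 and 144 ± 42.0 (SD, n = 3 each), a log2 difference of -3.06 (standard error 0.51, 95% interval -4.18 to -1.94, limma adjusted p = 0.00782, within 3.23e-05 to 0.307 over its alternatives). The call held without any 1 of the Col6a1+ libraries and was lost without Col6a1- replicate 1, 2 or 3 (adjusted p = 0.078, 0.0928 and 0.113), with a log2 fold change between -3.34 and -2.81 in these 6 fits.

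Cd81 encodes a tetraspanin, a membrane protein that organises other receptors. Cd81 (ENSMUSG00000037706, chromosome 7 from 143052739 to 143067934, plus strand) had 144, 149 and 278 normalized counts in Col6a1+ CAFs and 563, 678 and 669 in Col6a1- CAFs. The Col6a1- libraries lay close together, and the Col6a1+ libraries less so. Its log2 fold change was -1.80 (standard error 0.33, 95% interval -2.54 to -1.06, limma adjusted p = 0.0132, within 2.01e-05 to 0.338 over its alternatives). Of the fits without 1 library, only that without Col6a1+ replicate 3 kept the call (adjusted p = 0.0309), and the adjusted p-values of the others were between 0.0536 and 0.132. The epithelial genes given above moved in the same direction as Cd34 and Cd81, with log2 fold changes of -2.12 for Epcam and -2.25 for Cdh1, and their part in these differences was not tested.

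Pi16 and Dpp4 had few counts. Pi16 (ENSMUSG00000024011, chromosome 17 from 29318877 to 29329413, plus strand), a peptidase inhibitor that names the adventitial fibroblast population, had 0, 4 and 1 normalized counts in Col6a1+ CAFs and 4, 48 and 29 in Col6a1- CAFs. The subsets met at 4, in Col6a1+ replicate 2 and Col6a1- replicate 1, and each Col6a1+ library was below the Col6a1- library of the same number. Dpp4 (ENSMUSG00000035000, chromosome 2 from 62330073 to 62412231, minus strand), which encodes the dipeptidyl peptidase CD26, had 0, 11 and 1 normalized counts in Col6a1+ CAFs and 31, 20 and 24 in Col6a1- CAFs. The Dpp4 levels of the subsets did not overlap, and Col6a1+ replicate 2 stood above the other two of its group. The log2 fold changes were -3.17 for Pi16 (standard error 1.17) and -3.15 for Dpp4 (standard error 1.09), and neither passed (limma adjusted p = 0.186 and 0.155). By a looser rule, an unadjusted p under 0.05 and more than a doubling or halving, both were higher in Col6a1- CAFs, as were 5 of the 10 markers and 8.61% of all genes, and none of the markers was higher in Col6a1+ CAFs, against 6.09%. A level of 0 allows up to 3 counts, and 1 count was added before the log, so the fold changes of Pi16 and Dpp4 depend on that addition.

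Cd55 encodes decay-accelerating factor, which protects cells from complement. Cd55 (ENSMUSG00000026399, chromosome 1 from 130439027 to 130462744, minus strand) had 97, 45 and 41 normalized counts in Col6a1+ CAFs and 143, 246 and 164 in Col6a1- CAFs. The subsets did not overlap, and Col6a1+ replicate 1 came nearest to the Col6a1- libraries. Its log2 fold change of -1.65 (standard error 0.44, 95% interval -2.63 to -0.67) missed the threshold (limma adjusted p = 0.0658, within 0.000183 to 0.481 over its alternatives). Cd55 passed under 8 alternatives and not under 12. Among the 8 were the fit without Col6a1+ replicate 1 (log2 fold change -2.04, limma adjusted p = 0.0348), library size alone (0.0475) and array quality weights (0.00762). The filters of a mean of at least 10 (0.0478) and of 10 in every library (0.0362) were also among them. Its neighbour and near copy Cd55b had 1 normalized count in 1 library and 0 in the other five.

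Ly6a (ENSMUSG00000075602, chromosome 15 from 74994877 to 74998031, minus strand), the gene of the GPI-anchored stem cell antigen Sca-1, had 781, 1613 and 1585 normalized counts in Col6a1+ CAFs and 1792, 3233 and 1598 in Col6a1- CAFs. The subsets overlapped, since Col6a1- replicate 3 lay between Col6a1+ replicates 2 and 3. Its log2 fold change of -0.74 missed the threshold (standard error 0.38, 95% interval -1.57 to 0.10, limma adjusted p = 0.379). Of the other 10 genes of the Ly6 family near it on chromosome 15, which share sequence with Ly6a so that reads could be split among them, Ly6d was called higher in Col6a1- CAFs. Ly6d had 106, 142 and 122 normalized counts in Col6a1+ CAFs and 438, 383 and 288 in Col6a1- CAFs, without overlap. It passed in limma (log2 fold change -1.56, standard error 0.32, adjusted p = 0.0209) and not with the replicate block (adjusted p = 0.0916). With the block over genes that averaged 10 or more, Ly6d passed (limma adjusted p = 0.0133). Ly6c1, which is found on adventitial fibroblasts and on endothelium, had 54, 381 and 315 against 262, 541 and 263, with an overlap of the subsets (log2 fold change -0.83, limma adjusted p = 0.603).

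The genes of secreted and matrix proteins overlapped between the subsets. Clec3b (ENSMUSG00000025784, chromosome 9 from 123150946 to 123157432, plus strand) encodes tetranectin, which binds plasminogen, and had 69, 260 and 45 normalized counts in Col6a1+ CAFs and 122, 330 and 122 in Col6a1- CAFs. The libraries numbered 2 were the highest of each subset. Its log2 fold change was -0.86 (standard error 0.64, 95% interval -2.28 to 0.56, limma adjusted p = 0.589). Dpt (ENSMUSG00000026574, chromosome 1 from 164796644 to 164824266, plus strand) encodes dermatopontin, a small matrix protein that binds decorin, and had 132, 600 and 197 normalized counts in Col6a1+ CAFs and 297, 350 and 146 in Col6a1- CAFs. The highest and the lowest Dpt values were both in Col6a1+ libraries. The log2 fold change of Dpt was 0.01 (standard error 0.55, limma adjusted p = 1), with a 95% interval from -1.20 to 1.22 that leaves room for a difference of either sign.

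Sema3c (ENSMUSG00000028780, chromosome 5 from 17574281 to 17730268, plus strand), a secreted semaphorin, had 220, 109 and 88 normalized counts in Col6a1+ CAFs and 186, 162 and 152 in Col6a1- CAFs. The Col6a1- values fell inside the range of the Col6a1+ values. Gsn (ENSMUSG00000026879, chromosome 2 from 35256380 to 35307892, plus strand), the gene of gelsolin, which cuts actin filaments and is also secreted into plasma, had 309, 1049 and 639 against 666, 1207 and 428. The log2 fold changes were -0.37 for Sema3c (standard error 0.40, 95% interval -1.26 to 0.52) and -0.24 for Gsn (standard error 0.48, 95% interval -1.32 to 0.83), with limma adjusted p-values of 0.642 and 0.791. Gsn changed sign without Col6a1+ replicate 1 (0.22) and without Col6a1- replicate 2 (0.15). Dpt turned to -0.62 without Col6a1+ replicate 2 and to -0.37 without Col6a1- replicate 3, and to -0.04 when libraries were scaled by their total alone.

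The libraries numbered 2 stood high together in several of these genes, and those numbered 1 and 3 did not. Col6a1+ replicate 2 and Col6a1- replicate 2 were each the highest of their subset for 5 of the 10 markers, Pi16, Ly6a, Clec3b, Dpt and Gsn, as for 10.1% of all genes tested and 12.0% of those with a mean of at least 10. Replicate 1 was the highest of both subsets for Sema3c, as for 18.1% of the genes averaging 10 or more, and replicate 3 for none of the markers, against 7.83% of all genes and 9.29% of those with a mean of at least 10. Without both libraries numbered 2, a fit of 2 against 2 libraries added after seeing the data, the median log2 fold change of the 10 markers was -1.19 and none was called (limma adjusted p = 0.307 for Cd34 and 0.338 for Cd81). Col6a1, the check of the labels, was not called in that fit either (limma adjusted p = 0.288). The share of all genes called in it was not counted. Within same-numbered pairs, the Col6a1+ library was the lower in all 3 pairs for 7 of the 10 markers, the 6 surface genes and Clec3b, as for 18.8% of all genes tested and 28.3% of those with a mean of at least 10. Cd34 differed by -3.01, -3.43 and -2.73 on the log2 scale in the 3 pairs, and Cd81 by -1.96, -2.18 and -1.26. Dpp4 differed by -5.00, -0.81 and -3.64, and the Ly6a difference of pair 3 was -0.01. Dpt was lower in Col6a1+ CAFs in 1 pair, by 1.16, and higher in the other two, by 0.78 and 0.43.

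**Figure D3:**
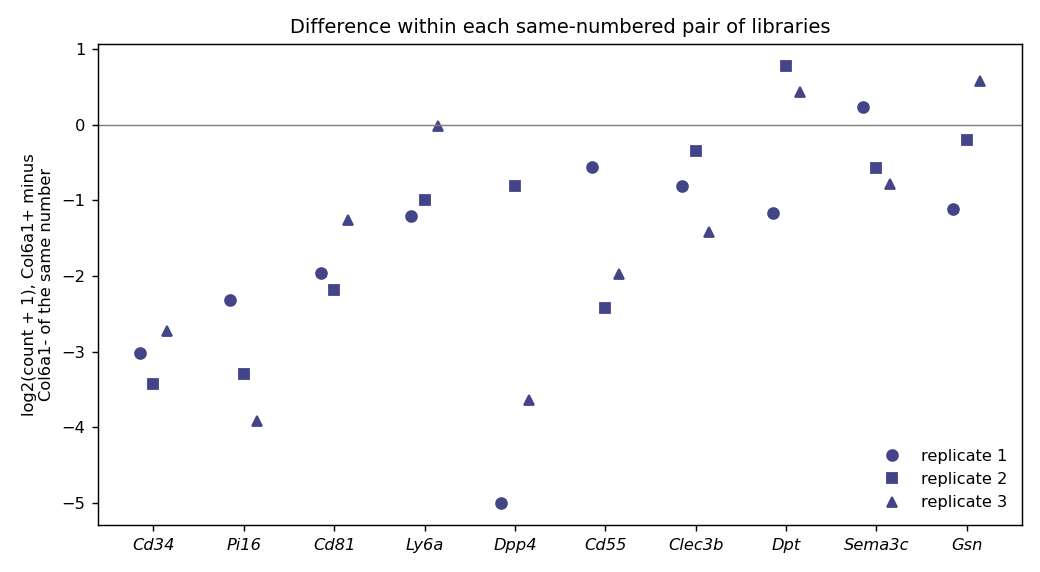
Difference in log2(normalized count + 1) between the Col6a1+ and the Col6a1- library of the same replicate number (vertical axis) for each of the 10 markers, with 1 symbol per pair. The 3 pairs of Cd34 lie between -3.43 and -2.73 and those of Cd81 between -2.18 and -1.26, while Dpt, Sema3c and Gsn have pairs on both sides of 0.

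Genes that overlap the markers had few counts. Those that overlap Cd34, Cd81 and Gsn summed to 8, 22 and 14 normalized counts over the 6 libraries, the first 2 on the opposite strand, and those that overlap Dpp4, Cd55 and Dpt had none.

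A wider list of 23 genes known from trophocytes and adventitial fibroblasts gave calls in the other direction. Of the 23, 3 were called higher in Col6a1+ CAFs, Axl, Cd248 and Fbn1, beside 2.66% of all genes, and none was called higher in Col6a1- CAFs in limma, beside 1.96%. With limma-voom 1 was called higher in Col6a1- CAFs (Wnt2). By the looser rule on unadjusted p-values, 4 were higher in Col6a1- CAFs (Grem1, Rspo3, Wnt2 and Mfap5), beside 8.61% of all genes, and 7 in Col6a1+ CAFs (Axl, Cd248, Fbn1, Uchl1, Ackr3, Col15a1 and Efemp1), beside 6.09%. The median log2 fold change of the list was -0.08, with 12 genes lower and 11 higher in Col6a1+ CAFs. Unlike among the 10 markers, the medians of its 10 surface and other genes (-0.03) and its 9 matrix and secreted genes (0.05) were alike. Axl, a receptor tyrosine kinase, had 1216, 1153 and 3646 normalized counts in Col6a1+ CAFs and 147, 172 and 97 in Col6a1- CAFs (log2 fold change 3.67, standard error 0.45, limma adjusted p = 0.00191). Cd248, the surface protein endosialin of fibroblasts and pericytes, had 127, 397 and 487 against 11, 73 and 19 (log2 fold change 3.48, standard error 0.71, limma adjusted p = 0.0205). The microfibril gene Fbn1 had 790, 717 and 631 against 202, 243 and 60 (log2 fold change 2.30, standard error 0.48, limma adjusted p = 0.0226). Under the replicate block these calls were lost (adjusted p = 0.0761, 0.0722 and 0.1). With the block over genes that averaged 10 or more they were kept (limma adjusted p = 0.00308, 0.00402 and 0.00734). Axl was not called without Col6a1- replicate 1 or 3 (adjusted p = 0.088 and 0.0717). When any 1 library was left out, Fbn1 was not called (adjusted p between 0.0724 and 0.124), and Cd248 was called only without Col6a1+ replicate 1 (adjusted p = 0.048).

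The 4 genes of secreted niche factors in the wider list had lower mean log2 values in Col6a1+ CAFs (median log2 fold change -1.76), and none passed. Grem1 had 89, 208 and 186 normalized counts in Col6a1+ CAFs and 440, 311 and 225 in Col6a1- CAFs, with no overlap (log2 fold change -1.05, standard error 0.41, limma adjusted p = 0.222). Wnt2 had 0, 3 and 0 against 34, 25 and 11, with no overlap (log2 fold change -3.80, standard error 1.03, 95% interval -6.09 to -1.52, limma adjusted p = 0.0678). The mean of its Col6a1- libraries was 7.78-fold above a floor of 3 counts per library, a ratio that leaves out the spread between those libraries. Rspo3, the R-spondin gene of trophocytes, had 0, 1 and 0 against 11, 13 and 1, and Wnt2b had 0, 67 and 15 against 13, 32 and 14. The subsets overlapped for Rspo3 and Wnt2b. Of the matrix genes, Mfap5, which is typical of adventitial fibroblasts, had 3, 29 and 21 against 90, 95 and 35 (log2 fold change -2.30, limma adjusted p = 0.17), and Col15a1 had 727, 362 and 614 against 218, 274 and 83 (log2 fold change 1.67, limma adjusted p = 0.0737). The scavenging chemokine receptor gene Ackr3 had 258, 181 and 129 against 59, 82 and 36 (log2 fold change 1.69, limma adjusted p = 0.0588). Mfap5, Col15a1 and Ackr3 had no overlap between the subsets. In all, the subsets did not overlap for 3 of the 23 genes that were higher in Col6a1- CAFs and for 5 that were higher in Col6a1+ CAFs, beside 11.6% and 7.91% of all genes tested. As among the markers, the libraries numbered 2 were the highest of both subsets for 8 of the 23 genes.

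**Figure D4:**
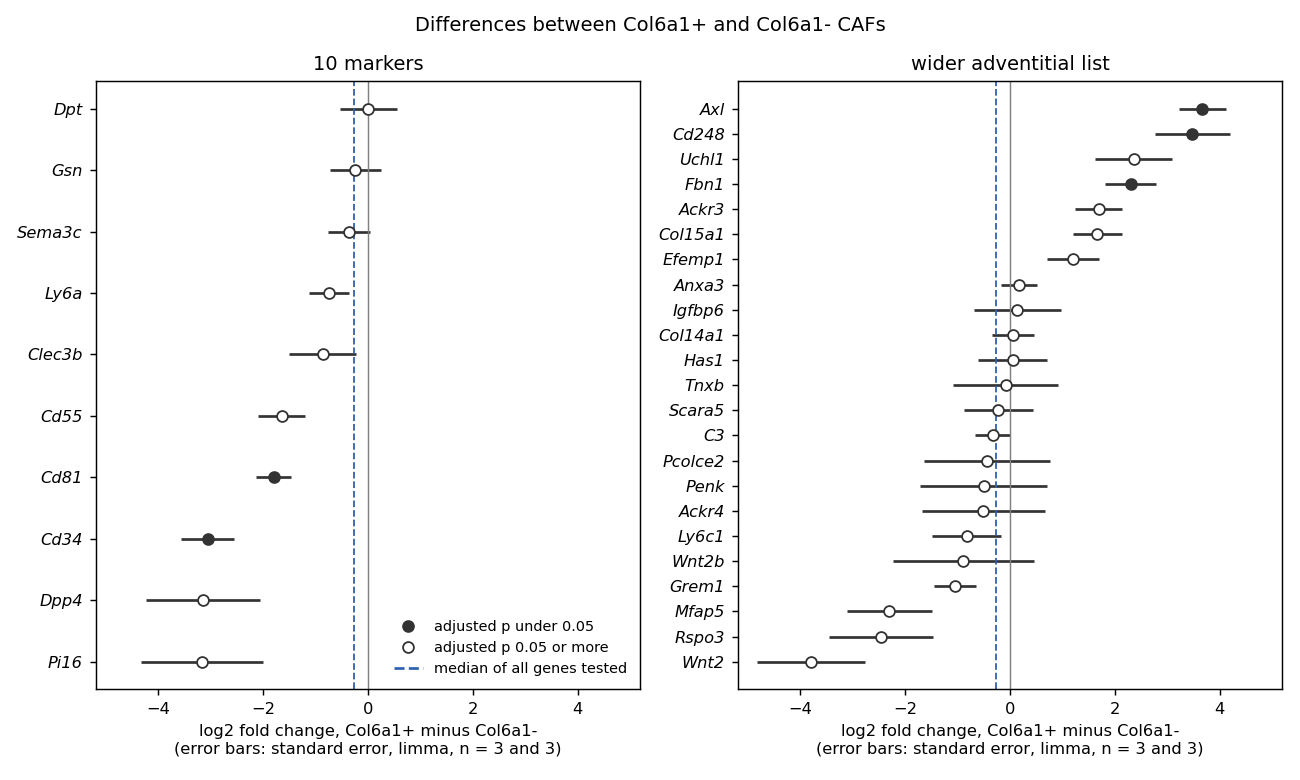
Log2 fold change (horizontal axis, Col6a1+ minus Col6a1- CAFs) with its standard error from limma for the 10 markers (left) and the 23 genes of the wider list (right), ordered by value, with filled points for an adjusted p under 0.05 and a dashed line at the median of all genes tested. The markers lie from -3.17 to 0.01 with Cd34 and Cd81 filled, and the wider list from -3.80 to 3.67 with Axl, Cd248 and Fbn1 filled.

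Among 13514 other genes that averaged 10 or more, those with the pattern most like Cd34 over the 6 libraries were Clec4n, Rassf10, Jakmip1, BC025446 and Krt7, at distances of 0.66 to 0.71 between centred log2 values. Krt7, a keratin of simple epithelia, had 52, 102 and 134 normalized counts in Col6a1+ CAFs and 465, 614 and 637 in Col6a1- CAFs. Genes like Cd81 were Slc35c1, Dhcr7, Msmo1 and Hsd11b2, at distances of 0.52 to 0.61. Hsd11b2, which encodes the enzyme that inactivates cortisol and corticosterone, had 17, 17 and 25 against 79, 110 and 79. Cd81 ranked 142nd in likeness to Cd34, Pi16 ranked 765th and Cd55 794th, and the other markers ranked 1510th or lower. The distances are a description of 6 libraries, in which the contrast of the subsets weighs most.

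Genes of the other cell types that the sort could hold were compared beside the markers. The 8 endothelial genes summed to 121 to 345 normalized counts in Col6a1+ CAFs and 135 to 340 in Col6a1- CAFs, and 1 of the 8, Tie1, was called, higher in Col6a1+ CAFs. The other seven had lower mean log2 values in Col6a1+ CAFs, as Cd34 did, and 2 of them, Cdh5 and Cldn5, were higher in Col6a1- CAFs by the looser rule (log2 fold changes of -1.84 and -2.99). The median log2 fold change of the 8 was -1.59. The 8 immune genes summed to 27 to 64 and 95 to 144, with Ptprc, the gene of CD45, between 0 and 8 in every library. None of the immune genes was called in limma, and 3 were higher in Col6a1- CAFs by the looser rule. Of 6 mesothelial genes, which were compared because mesothelium lies next to adventitia-like stroma, the sums were 1 to 19 and 14 to 38, with Lrrn4 at 0 in all libraries, none called, and 1 higher in Col6a1- CAFs by the looser rule. The 10 pericyte and smooth muscle genes were all called higher in Col6a1+ CAFs, with sums of 52713 to 106151 against 1544 to 4039, and of the 9 telocyte genes 5 were called higher in Col6a1+ CAFs. The 4 glial genes summed to 50 to 73 and 19 to 52, and the 4 erythroid genes to 110 to 1710 and 279 to 467. None of the glial or erythroid genes was called, and by the looser rule 1 glial gene was higher in Col6a1+ CAFs and 0 erythroid genes differed. With the replicate block, none of the calls of the cell type genes, pan-fibroblast and epithelial genes included, was kept (limma adjusted p between 0.0612 and 0.153). When the block was fitted only to genes that averaged 10 or more, all of these calls were kept (limma adjusted p between 0.000524 and 0.0224). The part of these cell types in the marker differences was not tested.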

How the data were processed

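The authors mapped QuantSeq 3′ reads with TopHat2 and then Bowtie2 to mm10, counted them per gene with GenomicRanges, and normalized them with DESeq through metaseqR. The deposited table holds, per library, the log2 of the normalized count plus 1, and undoing the log gave whole numbers in every value. Its columns of fold changes, p-values, group means and 6 per-sample columns of reads per gene model were not used. Groups and replicate numbers came from the sample titles.

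The log2 values were fitted with limma 3.58.1 in R 4.3.3 (lmFit, eBayes with trend, two-sided; 6.475 prior and 4 residual degrees of freedom) to 26402 genes, those whose normalized counts summed to 1 or more. Genes were called at a Benjamini-Hochberg adjusted p under 0.05. Each fold change is the mean log2 value of Col6a1+ minus that of Col6a1- CAFs, and understates changes of low genes. The test was tested on simulated data. The 10 genes and the other lists were chosen with earlier results of these data known. The genes named are all 10 markers, genes of the wider list that were called or did not overlap, the 5 genes nearest to Cd34 and to Cd81 (of which 1 is not reported here), near copies and Col6a1, and the other genes named were chosen after their values were seen.

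Same-numbered libraries deviated together from their group means over 13515 genes (correlations of 0.245, 0.126 and 0.144). Those between different numbers ran from -0.245 to 0.150, so that 1 of them exceeded 2 of the same-numbered ones. Each same-numbered correlation was over 0.1, but so was the highest between different numbers, so this cut does not settle the pairing. The numbers were read as possible pairs, and the replicate block was fitted as an alternative. The reported calls come from the fit without the block. The labels do not say whether same-numbered libraries share animals, and p-values measure the spread between these pools. Other alternatives were other scalings, filters, pseudocounts of 0.1 and 5, limma-voom, array quality weights, each library left out with the filter applied anew, and the looser criterion. Scaling to pan-fibroblast genes and leaving out both libraries numbered 2 were added after seeing the data. No molecular identifiers are named, so floors of 3 counts cover counting error only. Plots used Python 3.11.15 and Matplotlib 3.10.9.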

Additional observations from a re-analysis of the deposited data

How the results depend on the processing

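Of the 10 markers, 8, all but Dpt and Gsn, kept their direction under every alternative that gave them a value, at most 20 each. Pi16 and Dpp4 have no value where each library had to reach 10. The number called higher in Col6a1- CAFs, 2 as reported, was 0 over all genes of the table, 0 with the replicate block, 0 without both libraries numbered 2, 5 at the looser criterion of unadjusted p-values, and between 0 and 2 when 1 library was left out. Without Col6a1- replicate 1, 2 or 3 it was 0, and without Col6a1+ replicate 2 it was 1. It was 3 by library size alone, with either filter at 10 normalized counts, and with array quality weights. With the block over genes with a mean of at least 10 it was also 3. Of these alternatives, the share of all genes called was counted only for the looser criterion (8.61%). The number called higher in Col6a1+ CAFs stayed at 0. Scaled to the 7 pan-fibroblast genes, 10 of the 10 markers were called higher in Col6a1- CAFs, but so were 64.6% of all genes, whose median moved from -0.27 to -1.99, and the median of the markers moved to -2.98. The median of the markers was -0.80 where each library had to reach 10, which leaves out Pi16 and Dpp4, and between -1.54 and -0.93 when 1 library was left out.

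In the wider list of 23 genes, the number called higher in Col6a1- CAFs was 1 with limma-voom, 1 with array quality weights and 4 at the looser criterion. Scaled to pan-fibroblast genes it was 9, beside 64.6% of all genes. The number called higher in Col6a1+ CAFs, 3 as reported, was 5 where each library had to reach 10, 0 over all genes of the table, 0 with the replicate block, 7 with the block over genes with a mean of at least 10, 0 without both libraries numbered 2, 7 at the looser criterion, and 0 to 2 when 1 library was left out. It was 1 without Col6a1+ replicate 2, Col6a1+ replicate 3 or Col6a1- replicate 2, and 0 without Col6a1- replicate 1 or 3. Shares of all genes called were counted only for the reported fit, the looser criterion and the scaling to pan-fibroblast genes.

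Dpt turned negative by library size alone (-0.04), without Col6a1+ replicate 2 (-0.62), without Col6a1- replicate 3 (-0.37), without both libraries numbered 2 (-0.37) and scaled to pan-fibroblast genes (-1.71), within -0.62 to 0.47 when 1 library was left out. Gsn turned positive with array quality weights (0.01), without Col6a1+ replicate 1 (0.22) and without Col6a1- replicate 2 (0.15), within -0.66 to 0.22 when 1 library was left out. Scaled to pan-fibroblast genes, 19 of the 23 genes of the wider list were lower in Col6a1+ CAFs in place of 12, among them Ackr3 (-0.04) and Col15a1 (-0.06). The median log2 fold change of the list was then -1.81, beside -1.99 over all genes tested. Some alternatives had fewer libraries or genes, and the causes of the changes were not tested. Pi16 and Dpp4 lie near the limit of 3 counts in Col6a1+ CAFs, and their log2 fold changes moved with the pseudocount. They were -4.55 and -4.53 with a pseudocount of 0.1, and -1.97 and -1.92 with 5.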
